A study of Mus musculus with 6 samples.

Results

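The genes described here encode the chondroitin sulfate proteoglycans of the lectican family and their partners in the brain's hyaluronan matrix. Brevican (Bcan), neurocan (Ncan), aggrecan (Acan) and versican (Vcan) are the lecticans. Hapln1, Hapln2 and Hapln4 are link proteins, and tenascin-R (Tnr) and tenascin-C (Tnc) are the tenascins of this matrix. They were chosen by gene name, and all 9 were found among the 34250 rows of the deposited expression table. RNA was measured by sequencing in 3 control libraries and 3 fibrinogen libraries of mouse, labelled as wild-type C57BL/6 brain oligodendrocyte progenitor cells (OPCs). Fibrinogen is the clotting protein of plasma, and the column names give its amount as 2.5 mg. The same names carry the word Mouse with a replicate number, without saying whether a number stands for an animal, a pool or a culture. The study's methods describe OPC cultures from the cortex of newborn C57BL/6 pups, purified by shaking off other glia. By these methods the cultures were given fibrinogen at 2.5 mg/mL or vehicle. A general statement there says that experiments were repeated independently, but nothing says for these libraries whether pups were pooled, whether replicates are separate cultures, or whether oxygen and glucose deprivation was used, so p-values measure the spread between libraries, which may be partly technical.

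Lecticans carry chondroitin sulfate chains on a core protein. Their N-terminal end binds hyaluronan, where a link protein holds both together, and their C-terminal lectin domain binds tenascins. In the mature brain such complexes condense into perineuronal nets around parvalbumin interneurons and into the matrix at nodes of Ranvier. Chondroitin sulfate proteoglycans also build up in glial scars, where they restrain axon growth and the maturation of OPCs. In mouse and rat, Tnc and the large versican forms belong mainly to the young brain, whereas Bcan, Acan, Tnr and Hapln2 rise as the brain matures.

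The libraries held 36670999 to 44448983 reads assigned to genes. Levels are given as RPKM, reads scaled to exon length and to the library total, so that genes of different length can be compared. Neuron and astrocyte markers stood far above those of OPCs in libraries that carry the OPC label. The 9 neuron markers summed to 1193 to 1512 RPKM per library and the 9 astrocyte markers to 407.2 to 582 RPKM, against 24.2 to 36.7 RPKM for the 8 OPC markers, and no marker of any list was at 0 in a library. Pdgfra, the receptor that defines OPCs, lay at 5.76 to 8.03 RPKM, while Cspg4, the other defining OPC gene, had a mean of 0.538 RPKM in controls and 0.863 RPKM with fibrinogen. Control replicate 3 stood apart in Gfap, an astrocyte filament gene, at 221.9 RPKM against 75.7 and 82.4 RPKM in the other controls. In these bulk libraries fewer cells of a type and less RNA per cell cannot be told apart.

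The genes lie in neighbouring pairs in the mouse genome, each pair made of a lectican and a link protein with no other row of the table between them. Positions are those of the deposited table, on GRCm38. Bcan (chromosome 3, 87987531 to 88000230) and Hapln2 (88021750 to 88027583) were on the same strand, 21519 bases apart. Hapln4 (chromosome 8, 70083457 to 70090862) and Ncan (70093085 to 70120873) pointed towards each other across 2222 bases, and Hapln1 (chromosome 13, 89540636 to 89611832) and Vcan (89655312 to 89742509) did so across 43479 bases. Acan (chromosome 7, 79053483 to 79115099) ended 2 bases from Hapln3, the remaining link protein gene, which is not among the 9. Tnr (chromosome 1, 159523769 to 159931729) and Tnc (chromosome 4, 63959785 to 64047015) stand alone. None of the lectican and link protein rows shared an exon base with another row.

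Hapln1, Tnr and Tnc had control and fibrinogen libraries that did not overlap. Of the 7 members that reached 1 RPKM in at least 3 libraries, Hapln1 and Tnr did so (28.6%), beside 35.1% of all such genes. Tnc lay under that level, where 13.9% of 17653 rows with a read had such groups, many of them on few reads. The sequences upstream of Hapln1, Tnr and Tnc are shown. No link between these sequences and the values was tested. The bases come from RefSeq on GRCm38.p6 and stop at the outermost RefSeq start of the gene, chr13:89540386-89540528 on the plus strand for Hapln1, chr1:159523519-159523728 on the plus strand for Tnr and chr4:64047016-64047265 on the minus strand for Tnc. Each is written 5′ to 3′ on the gene's strand, with motif matches in capitals.
Hapln1: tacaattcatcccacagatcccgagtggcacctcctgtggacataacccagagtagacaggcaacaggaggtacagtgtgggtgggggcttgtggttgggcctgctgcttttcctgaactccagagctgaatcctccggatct
Tnr: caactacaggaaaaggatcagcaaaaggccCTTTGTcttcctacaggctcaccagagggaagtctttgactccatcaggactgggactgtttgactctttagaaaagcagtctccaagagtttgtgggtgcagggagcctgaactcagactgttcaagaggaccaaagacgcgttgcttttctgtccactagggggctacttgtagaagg
Tnc: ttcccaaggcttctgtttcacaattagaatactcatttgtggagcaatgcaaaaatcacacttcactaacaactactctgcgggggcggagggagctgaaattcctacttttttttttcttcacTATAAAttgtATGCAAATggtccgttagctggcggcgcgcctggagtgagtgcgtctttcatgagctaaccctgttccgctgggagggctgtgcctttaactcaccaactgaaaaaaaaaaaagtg

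Both strands were searched for 6 motifs: a TATA motif TATANA, the POU octamer ATGCAAAT, the AP-1 site TGANTCA, the cyclic AMP element TGACGTCA, the E-box CAGCTG and a SOX motif ACAAAG. The Tnc window of 250 bases held 1 TATA motif and 1 octamer, and 22.56% and 1.6% of all 32851 RefSeq promoter windows of that length held them. The Tnr window of 210 bases held 1 SOX motif, on the other strand, a motif found in 14.21% of windows of that length. For these shares the first bases of every promoter window were used, without trimming at the outermost start of its gene. The Hapln1 window of 143 bases held none of the 6.

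Bcan, Tnr and Ncan were the abundant members, and Acan and Tnc were the lowest members. The mean over the 6 libraries was 28.1 RPKM for Bcan, 23.7 RPKM for Tnr and 20.3 RPKM for Ncan, above 87.3%, 85.2% and 82.7% of the tested genes. Hapln4 followed at 7.48 RPKM, Hapln2 at 3.14 RPKM, Vcan at 1.498 RPKM and Hapln1 at 1.41 RPKM. Tnc, at 0.462 RPKM, and Acan, at 0.374 RPKM, did not reach 1 RPKM in any library. The order of Bcan, Tnr and Ncan was not fixed: Bcan exceeded Tnr in 5 of 6 libraries and Tnr exceeded Ncan in 4 of 6. Vcan and Hapln1 were each the higher of their pair in 3 libraries, as were Tnc and Acan, whereas the other neighbours in this order had ranges that did not overlap.

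**Figure D1:**
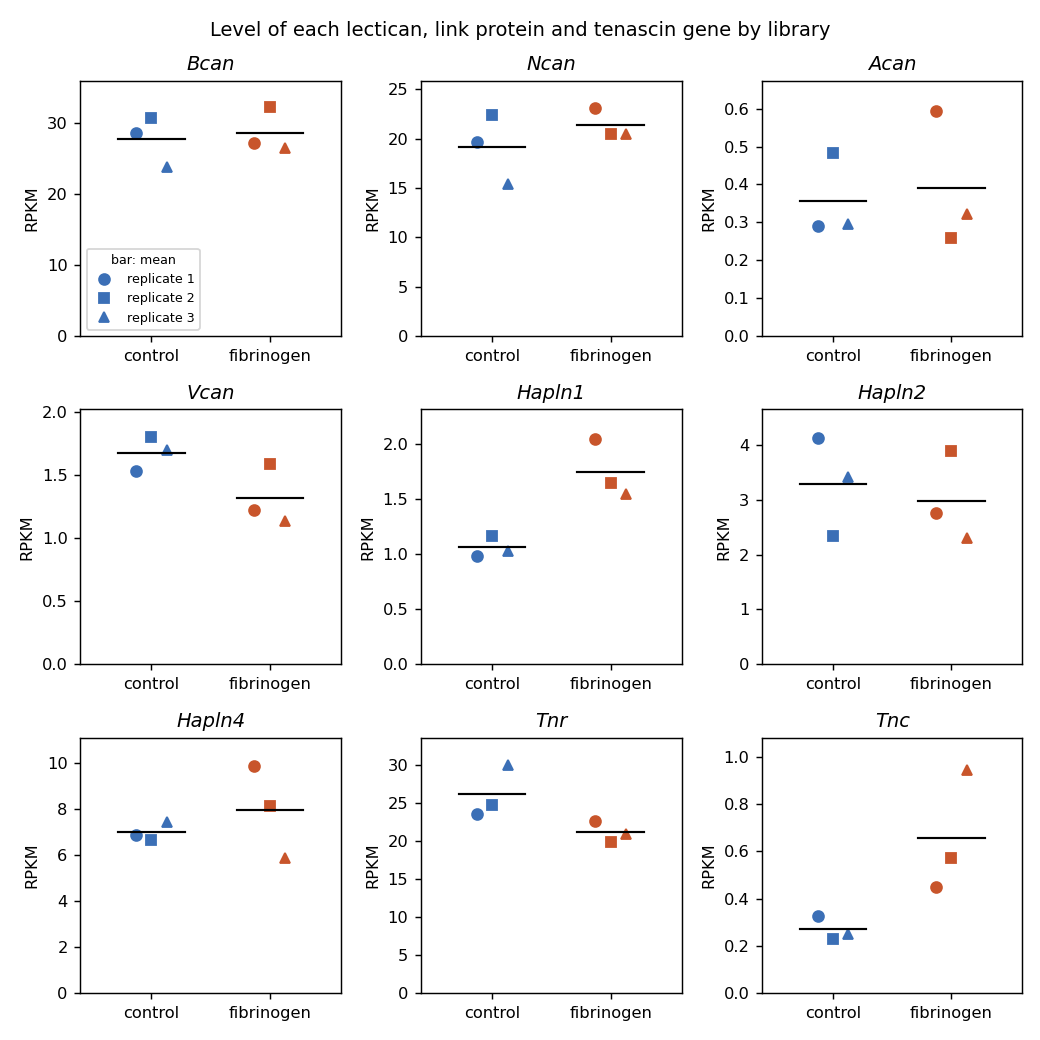
Level of each gene in RPKM (vertical axes from 0, each with its own scale) in the 3 control and 3 fibrinogen libraries, with a symbol for each replicate and a bar for the group mean. Hapln1 (0.988 to 1.17 against 1.55 to 2.05 RPKM), Tnc (0.231 to 0.326 against 0.449 to 0.947 RPKM) and Tnr (23.6 to 30.0 against 19.8 to 22.7 RPKM) have groups that do not touch, and the other 6 genes overlap. Groups were apart for 35.1% of all tested genes.

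Tested against the spread between libraries, no gene of the family passed the threshold of an adjusted p of 0.05. A gene was tested if it reached 1 RPKM in at least 3 libraries, which 7 of the 9 did. Of these 7, 0 were called by limma on log2(RPKM + 1), while 11.5% of all 14710 tested genes were called, 5.87% higher and 5.62% lower with fibrinogen. At an unadjusted p under 0.05 there were 2, Hapln1 and Tnr (28.6%, beside 29.4% of all tested genes). Limma-voom on the recovered reads called 1, Hapln1, beside 13.9% of the same 14710 genes. Groups that did not overlap were found for 2 of the 7 (28.6%), again Hapln1 and Tnr, against 35.1% of all tested genes (17.4% higher and 17.7% lower), a share near the background. The median log2 change of the 7 was 0.048, beside -0.0077 for all tested genes.

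**Figure D2:**
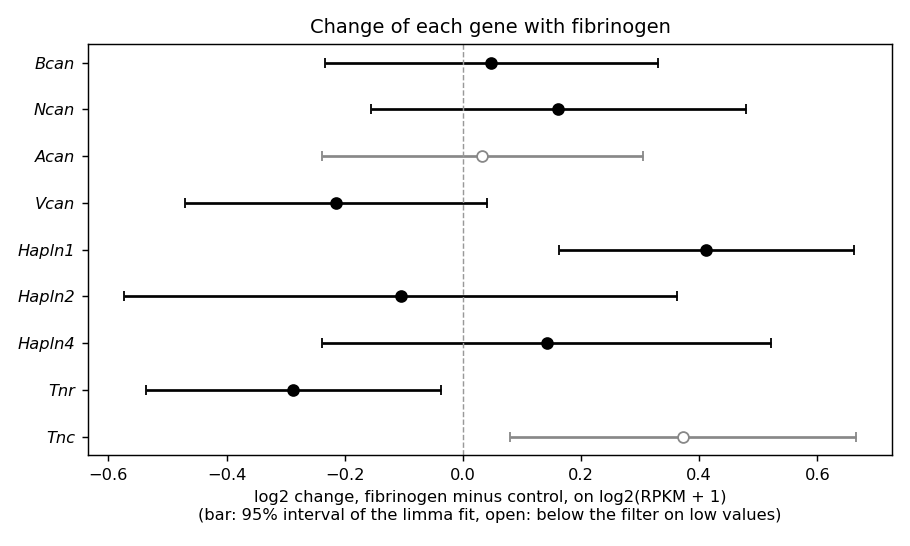
Change of each gene from control to fibrinogen in log2(RPKM + 1) units, with the 95% interval of the limma fit. Filled points are the 7 tested genes, and open points are Acan and Tnc, taken from the fit with no filter on low values. The intervals of Hapln1 (0.16 to 0.66), Tnr (-0.54 to -0.037) and Tnc (0.080 to 0.67) leave out 0 before adjustment for many genes.

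Among the lecticans, Bcan and Ncan, the most abundant of the family in these libraries, had fibrinogen means of 1.03-fold and 1.11-fold the control means. Bcan was at 28.6, 30.7 and 23.7 RPKM in control replicates 1 to 3 and at 27.1, 32.1 and 26.5 RPKM in fibrinogen replicates 1 to 3. The groups overlapped, and the log2 change was 0.048 ± 0.12 (SE, limma adjusted p = 0.821, 95% interval -0.23 to 0.33), and its sign was negative without control replicate 3 (-0.055), without fibrinogen replicate 2 (-0.036) and with array weights (-0.023). Ncan, which binds neural cell adhesion molecules, was at 19.7, 22.4 and 15.4 RPKM in controls and at 23.1, 20.5 and 20.4 RPKM with fibrinogen. Its groups overlapped as well, with control replicate 3 the lowest library for both Ncan and Bcan. The log2 change of Ncan was 0.16 ± 0.13 (SE, limma adjusted p = 0.472, 95% interval -0.16 to 0.48), and without control replicate 3 it was 0.020.

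Vcan, the versican gene, whose product is made by OPCs in the postnatal brain, had a lower mean with fibrinogen, at 1.32 against 1.68 RPKM. It was at 1.53, 1.80 and 1.70 RPKM in controls and at 1.22, 1.59 and 1.13 RPKM with fibrinogen, from 648 to 1053 reads per library. A single pair of libraries made the groups overlap, fibrinogen replicate 2 lying just above control replicate 1. The log2 change was -0.21 ± 0.11 (SE, limma adjusted p = 0.239, 95% interval -0.47 to 0.041), and it did not pass in any of 17 alternatives. Acan, the core proteoglycan of perineuronal nets, was at 0.291, 0.483 and 0.294 RPKM in controls and at 0.595, 0.259 and 0.322 RPKM with fibrinogen. These values rest on 83 to 163 reads per library, and the highest and the lowest library were both fibrinogen libraries. Without the filter its log2 change was 0.033 ± 0.11 (SE, limma adjusted p = 0.891).

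Taken by composition, Bcan made up 52.1% to 59.0% and Ncan 37.5% to 44.4% of the summed lectican RPKM of a library. Vcan made up 3.06%, 3.25% and 4.14% in controls and 2.35%, 2.92% and 2.35% with fibrinogen, a share that was lower in every fibrinogen library than in any control. The level of Vcan itself overlapped between the groups and was not called (limma adjusted p = 0.239). Bcan and Ncan hold nearly all of the sum, so this share largely repeats the Vcan over Bcan ratio given below. Acan made up 0.475% to 1.14%. The summed lectican level itself overlapped between the groups, at 41.1 to 55.4 RPKM in controls and 48.4 to 54.5 RPKM with fibrinogen.

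Of the link proteins, Hapln1 alone had groups that did not overlap. It encodes cartilage link protein, which neurons add to forming perineuronal nets. It was at 0.988, 1.17 and 1.03 RPKM in controls, a mean of 1.06 ± 0.0958 (SD, n = 3), and at 2.05, 1.65 and 1.55 RPKM with fibrinogen, a mean of 1.75 ± 0.265. Every fibrinogen library was thus above every control, and the means differed by 1.65-fold on 191 to 380 reads per library. On the log2 scale this was 0.41 ± 0.11 (SE), which just missed the threshold (limma adjusted p = 0.0502). Over 17 alternatives its adjusted p lay between 0.0153 and 0.160, and 4 of them called it, among them the fit without a trend in the prior variance (11.2% of all genes called) and that with array weights (27.5% of all genes called). Limma-voom on the recovered reads gave a log2 change of 0.71 (limma adjusted p = 0.0220).

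Hapln2, the link protein that oligodendrocytes place at nodes of Ranvier, was at 4.12, 2.33 and 3.41 RPKM in controls and at 2.76, 3.89 and 2.29 RPKM with fibrinogen. Its libraries were spread widely within both groups, and the log2 change was -0.11 ± 0.20 (SE, limma adjusted p = 0.761, 95% interval -0.57 to 0.36), with the sign turned without control replicate 1 (0.034) or fibrinogen replicate 3 (0.022). Hapln4, a link protein of inhibitory synapses in brainstem and cerebellum, was at 6.89, 6.64 and 7.43 RPKM in controls and at 9.89, 8.12 and 5.88 RPKM with fibrinogen. The fibrinogen libraries of Hapln4 enclosed the whole range of the controls. The log2 change was 0.14 ± 0.16 (SE, limma adjusted p = 0.600, 95% interval -0.24 to 0.52), and -0.011 without fibrinogen replicate 1.

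The tenascins stood in opposite order. Tnr, the tenascin of oligodendrocytes and some interneurons that crosslinks lecticans in nets, was at 23.6, 24.8 and 30.0 RPKM in controls and at 22.7, 19.8 and 21.0 RPKM with fibrinogen. All fibrinogen libraries lay below all controls, with control replicate 3 the highest. The means were 26.2 ± 3.41 (SD, n = 3) and 21.2 ± 1.44 RPKM, and the log2 change was -0.29 ± 0.11 (SE, limma adjusted p = 0.125, unadjusted p = 0.0297). Without control replicate 3 the change was -0.19, and none of 18 alternatives called it.

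The Tnr row has a companion in the table. Gm38039, a predicted gene annotated on the opposite strand, has 443 exon bases, and all of them lie within exons of Tnr, of whose exon length they are 3.44%. It was at 15.4, 16.8 and 18.9 RPKM in controls and at 13.7, 11.4 and 11.5 RPKM with fibrinogen, on 210 to 357 reads. Gm38039 fell by 0.45 ± 0.10 (SE) on the log2 scale, which passed (limma adjusted p = 0.0385), beside 11.5% of all tested genes called. Gm38039 was named after its values were seen, and its call was not followed over the alternative settings. Its libraries ranked as those of Tnr did over both groups, from control replicate 3 as the highest to fibrinogen replicate 2 as the lowest. No source used here says how reads on shared bases were assigned or whether strand was used, and the values of Gm38039 and Tnr cannot be fully separated.

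Tnc, the tenascin of radial glia, young astrocytes and injured tissue, was low in all libraries. It was at 0.326, 0.231 and 0.250 RPKM in controls and at 0.449, 0.570 and 0.947 RPKM with fibrinogen, on 70 to 303 reads. All fibrinogen libraries were above all controls, by 2.44-fold in the means. Among 17653 rows under the filter that held a read, 13.9% had groups that did not overlap (6.12% higher and 7.82% lower). Many of those rows hold few reads, and among all tested genes the share was 35.1%. For Tnc, fibrinogen replicate 3 was well above the other fibrinogen libraries. With no filter on low values the log2 change was 0.37 ± 0.12 (SE, limma adjusted p = 0.168), on a scale whose added 1 RPKM shrinks the change of so low a gene. Limma-voom on genes with at least 10 reads in 3 libraries, a fit chosen after seeing the data, called it with a log2 change of 1.24 (limma adjusted p = 0.0362), beside 11.4% of the 20113 genes in that fit. Tnc shares 176 exon bases, 2.27% of its exon length, with 8030451A03Rik on the opposite strand, a row with at most 12 reads in a library.

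Ratios of genes within a library do not depend on its depth or scaling, and 6 were compared. Hapln1 over Vcan, the neighbours on chromosome 13, was 0.644, 0.649 and 0.603 in controls and 1.68, 1.04 and 1.37 with fibrinogen. The controls were nearly equal, and every fibrinogen library had more Hapln1 relative to Vcan, a log2 difference of 1.08, or 2.11-fold. Tnc over Tnr was 0.0138, 0.00931 and 0.00832 in controls and 0.0198, 0.0288 and 0.0451 with fibrinogen, a 2.88-fold difference, with control replicate 3 the lowest and fibrinogen replicate 3 the highest. Vcan over Bcan was 0.0536, 0.0588 and 0.0719 in controls and 0.0451, 0.0495 and 0.0429 with fibrinogen, a log2 difference of -0.42 that was -0.30 without control replicate 3. For these 3 ratios the groups did not overlap, and the exact two-sided permutation p was 0.1 for each, the smallest that 3 libraries against 3 allow (0.2 after adjustment over the 6 ratios). For Tnc over Tnr this outcome was fixed by the levels given above, since every fibrinogen library was higher in Tnc and lower in Tnr than every control. It is no further result. The groups of Hapln1 were also apart on their own, while those of Vcan overlapped.

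The remaining ratios overlapped between the groups. Ncan over Bcan was 0.690 ± 0.0403 (SD, n = 3) in controls and 0.754 ± 0.108 with fibrinogen (exact permutation p = 0.5). Hapln2 over Bcan was 0.121 ± 0.0393 and 0.103 ± 0.0172 (exact permutation p = 0.6). Hapln4 over Ncan was 0.376 ± 0.0953 and 0.370 ± 0.0735 (exact permutation p = 1), and the log2 difference of these convergent neighbours turned from -0.012 to 0.18 without control replicate 3. The pooled link protein level, Hapln1, Hapln2 and Hapln4 together, was 0.183 to 0.288 of the lectican level in controls and 0.201 to 0.282 with fibrinogen.

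**Figure D3:**
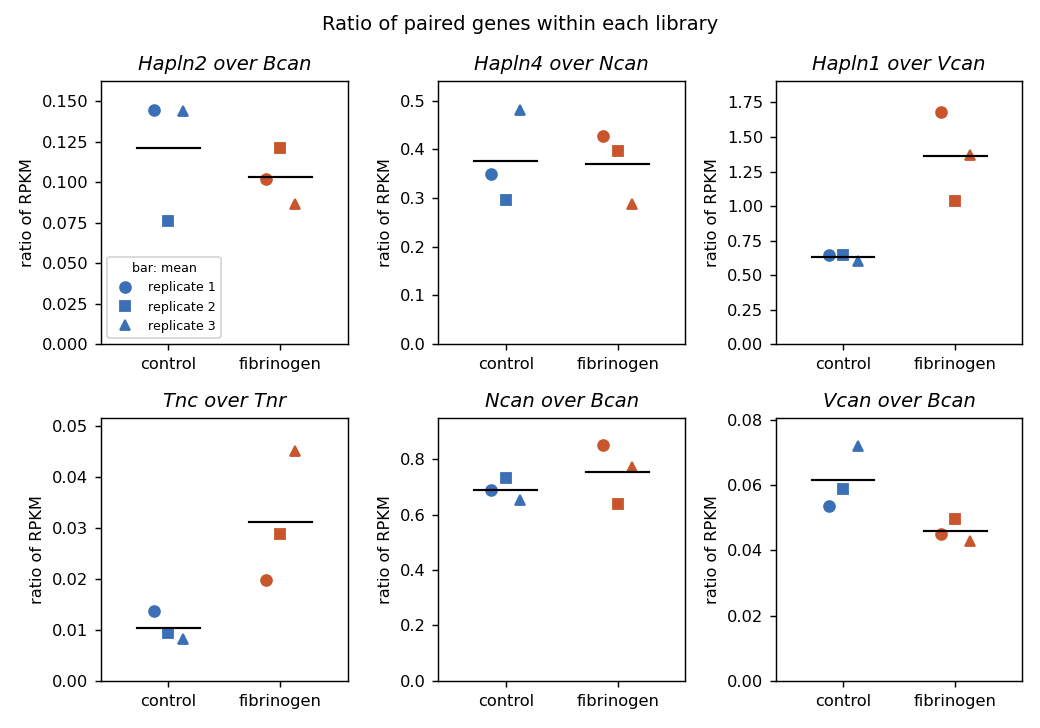
Ratio of RPKM of 2 genes within each library (vertical axes from 0), with a symbol for each replicate and a bar for the group mean. Hapln1 over Vcan and Tnc over Tnr are higher, and Vcan over Bcan is lower, in each of the 3 fibrinogen libraries than in every control, and the other 3 ratios overlap.

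The machinery that builds, sulfates, cuts and reads this matrix was followed in 7 lists of 74 genes, of which 47 were tested. Of these, 3 rose and 1 fell (8.51% called, beside 11.5% of all tested genes), and their median log2 change was 0.14. Among other proteoglycan cores, link protein and tenascins, 1 of 6 tested genes rose. Cspg5, the neuroglycan C core protein, was at 17.3, 18.1 and 14.4 RPKM in controls and at 25.0, 25.5 and 25.8 RPKM with fibrinogen, which is 0.59 ± 0.09 (SE) on the log2 scale (limma adjusted p = 0.0124). Ptprz1, the phosphacan gene that binds tenascins, had a log2 change of 0.29 (limma adjusted p = 0.0530) with groups that did not overlap.

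Among 12 enzymes that start and lengthen chondroitin chains 1 fell and 0 rose. Xylt2, a xylosyltransferase that adds the first sugar to the core protein, was at 8.05, 7.76 and 7.66 RPKM in controls and at 5.02, 5.76 and 6.32 RPKM with fibrinogen, which is -0.40 ± 0.09 (SE) on the log2 scale (limma adjusted p = 0.0348). Its homologue Xylt1 was at 6.18 and 6.77 RPKM in the group means and did not pass (limma adjusted p = 0.524). In this list the groups did not overlap for 8 genes, 4 higher and 4 lower with fibrinogen (66.7%, beside 35.1% of all tested genes), and the median log2 change was -0.0024. None of the 5 tested sulfotransferases and epimerases passed, the most abundant being Chst15 (log2 change 0.17) and Chst11 (0.17), and 2 had an unadjusted p under 0.05 (beside 29.4% of all tested genes), Ust (limma adjusted p = 0.0572) and Dsel (limma adjusted p = 0.0616).

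Few other genes of the matrix were called. The 2 tested hyaluronan genes, Tmem2 (log2 change -0.047) and Hyal1 (0.16), did not pass, nor did any of 7 matrix proteases and inhibitors, the most abundant of which were Timp2 (-0.070) and Timp3 (-0.24). Adamts1, a protease that cuts lecticans, was at 2.92, 3.09 and 14.2 RPKM in controls and 1.75 to 1.89 RPKM with fibrinogen (limma adjusted p = 0.171). Its groups did not overlap (beside 35.1% of all tested genes), and its control mean of 6.72 RPKM rests largely on control replicate 3. Of 11 receptors and partners 1 rose, Sema3a, a guidance protein held in nets by chondroitin sulfate (log2 change 0.49, limma adjusted p = 0.0299). Ptprs, the receptor for chondroitin sulfate, had a log2 change of 0.14 (limma adjusted p = 0.348). Among 4 genes of net-bearing interneurons Kcnc2, a potassium channel, rose (0.32, limma adjusted p = 0.0482), while Pvalb, the parvalbumin gene, had group means of 23.4 and 27.6 RPKM (limma adjusted p = 0.729). Kcnc2 lost its call in 8 of 17 alternatives, Xylt2 in 7 of 18, Sema3a in 6 of 17 and Cspg5 in 2 of 18.

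**Figure D4:**
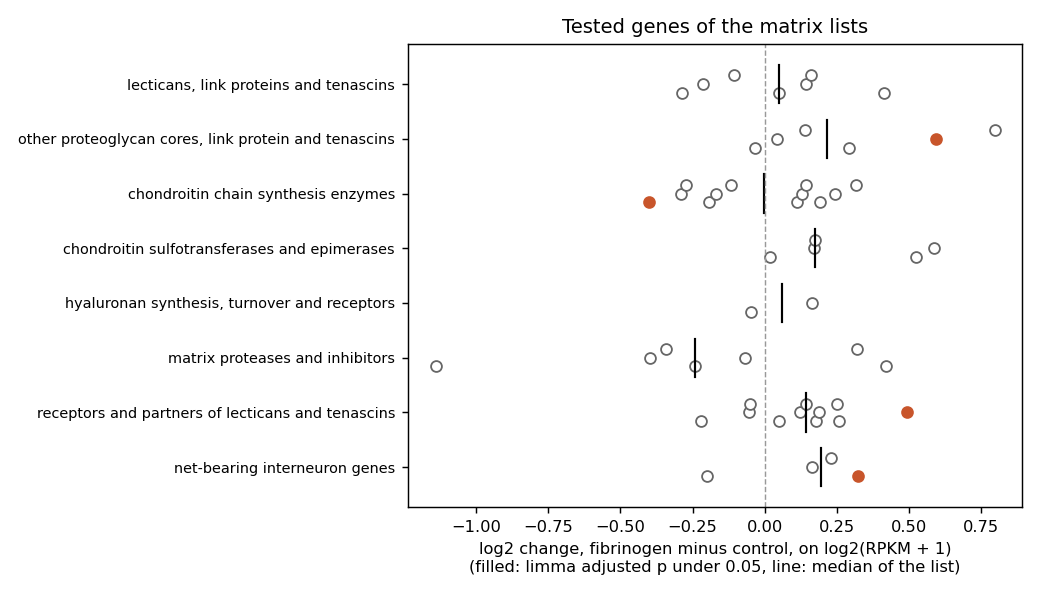
Change from control to fibrinogen in log2(RPKM + 1) units for the tested genes of each list, with a line at the median of the list. Filled points passed limma at an adjusted p of 0.05, namely Cspg5 (0.59), Sema3a (0.49) and Kcnc2 (0.32), which were higher, and Xylt2 (-0.40), which was lower.

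Some markers of brain cell types also differed between the groups, and their part in the values of Hapln1, Tnr and Tnc was not tested. The counts below stand beside 11.5% of all tested genes called, 5.87% higher and 5.62% lower with fibrinogen. Of 7 tested OPC markers 4 rose and 0 fell, Olig1, Olig2, Sox10 and C1ql1, and the summed OPC list went from 24.2 to 28.9 RPKM in controls to 34.6 to 36.7 RPKM with fibrinogen. Pdgfra, which defines OPCs, did not rise (log2 change -0.11, limma adjusted p = 0.615), nor did Lhfpl3 (-0.081, limma adjusted p = 0.726). Of 8 oligodendrocyte markers Mag, Ermn and Opalin rose, with sums that overlapped (208.9 to 333.6 and 243.4 to 396.1 RPKM). Of 9 astrocyte markers Aqp4 rose and Aldoc, Fgfr3 and Gjb6 fell, with sums of 483.8 to 582 RPKM in controls and 407.2 to 436.2 RPKM with fibrinogen. These sums include Gfap, at 75.7 to 221.9 RPKM in controls and 32.3 to 42.6 RPKM with fibrinogen, which was not called (limma adjusted p = 0.0503). The log2 change was above 0 for 4 of the 9. Stmn2 was the single riser among 9 neuron markers, whose sums overlapped (1202 to 1383 and 1193 to 1512 RPKM). Of 8 microglia markers Cx3cr1 rose and Ctss and C1qa fell, Rgs5 and Vtn rose among 3 tested fibroblast and pericyte markers (sums of 24.0 to 31.3 and 43.7 to 55.1 RPKM), and Tek rose among 5 endothelial markers. Many of these marker calls depended on the setting: C1ql1 was lost in 8 of 17 alternatives, Olig1 in 6 of 17, Olig2 in 3 of 17 and Sox10 in 5 of 18. Aldoc and Fgfr3 were each lost in 7 of 18, Mag, Rgs5 and Stmn2 in 6 of 18, Tek in 5 of 17 and Ermn in 1 of 18, while Opalin, Aqp4, Gjb6, Cx3cr1, Ctss, C1qa and Vtn were lost in none of 18.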

How the data were processed

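The authors deposited RPKM values for 34250 rows, made per the labels on GRCm38 (mm10) with featureCounts 1.5.1 and edgeR 3.12.1 after STAR 2.7.6a and Trimmomatic 0.39, from stranded mRNA libraries. The study's methods name another STAR release and GRCm39. Of 25667 symbols shared with RefSeq GRCm38.p6, 71.43% matched a gene end to within 10 bases, and 2.18% did so of 29972 shared with GENCODE on GRCm39, so positions are on GRCm38. No source used here gives the strand setting or the handling of multi-mapping reads.

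Groups came from the sample titles. Whole reads were recovered from RPKM and gene length (100% whole within 0.001 reads). Genes with at least 1 RPKM in 3 of 6 libraries were tested with limma 3.58.1 (R 4.3.3) on log2(RPKM + 1), two-sided, with a trended prior variance and Benjamini-Hochberg adjustment over 14710 genes at 0.05. Within-library ratios used an exact permutation test. Alternatives were other pseudocounts, filters, scalings, prior variance, library weights, a replicate block, limma-voom on recovered reads and leaving out each library. Members, lists and tests were chosen with earlier results of these data known. Named genes were the members, up to 4 called genes of each list by p or else its 2 most abundant tested genes, and the defining and called markers. Adamts1, Ptprz1, Xylt1, Ust, Dsel, Ptprs, Pvalb, Gm38039 and the genes under the filter were named beyond this or after their values were seen. RefSeq promoter windows were found for 8 of the 9 members.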

Additional observations from a re-analysis of the deposited data

How the results depend on the processing

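No member was called in the fit reported or without any 1 library (0 to 0 called). With no trend in the prior variance, with array weights and with limma-voom on recovered reads 1 was called each, Hapln1, and limma-voom on genes with at least 10 reads in 3 libraries, chosen after seeing the data, called 2, Hapln1 and Tnc (2298 of 20113 genes in all, beside 2045 of 14710 with limma-voom on recovered reads and 1641 with no trend). Over all genes 1689 were called, and 935 with no filter, 1052 at a mean of 5 RPKM (fewer genes tested), 4041 with array weights, 600 with the replicate block and 466 (without control replicate 1) to 2300 (without control replicate 3) when 1 library was left out, the others giving 494 to 948. Of the related genes 4 were called, and 1 with no filter, 7 with quantile normalization, 15 with array weights, 1 with the replicate block, 9 and 12 with limma-voom on the same genes and on those with 10 reads, and 0 (without fibrinogen replicate 1 or 3) to 8 (without control replicate 3) when 1 library was left out. The cause was not tested. Over fits without 1 library the log2 change ranged from -0.055 to 0.12 for Bcan, -0.28 to 0.034 for Hapln2 and -0.011 to 0.32 for Hapln4, and the log2 difference of Hapln4 over Ncan, -0.012 in all libraries, from -0.17 to 0.18. Bcan was at -0.023 with array weights. With the replicate block no member was called (Hapln1, limma adjusted p = 0.126). The deviations of libraries that share a replicate number had correlations of 0.058, -0.24 and -0.075, and no library (0 of 6) was closest to its own number. The samples share only a number, and the block is given as an alternative. Acan and Tnc, with 70 to 303 reads per library, could be judged only in the fits with no filter or on reads.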

Other observations

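Several matrix genes lay under the filter on low values and so outside the counts above. Of 27 related genes below it, the groups did not overlap for 9, with 8 higher and 1 lower with fibrinogen, beside 6.12% and 7.82% of 17653 rows under the filter that held a read. Many of those rows hold few reads, since only 20113 rows of the whole table had at least 10 reads in 3 libraries. Of the 27 genes, 25 did. Among all tested genes the groups did not overlap for 35.1% (17.4% higher and 17.7% lower). Higher were the NG2 proteoglycan gene Cspg4 (0.538 RPKM in controls and 0.863 RPKM with fibrinogen, group means), the biglycan gene Bgn (0.430 and 0.731 RPKM), the dermatan sulfate epimerase gene Dse (0.475 and 0.770 RPKM) and the hyaluronan synthase gene Has3 (0.425 and 0.652 RPKM). The proteases Adamts8 (0.394 and 0.774 RPKM) and Adamts15 (0.199 and 0.353 RPKM), the tenascin-binding integrin gene Itga9 (0.498 and 0.774 RPKM) and the channel gene Kcns3 (0.593 and 1.01 RPKM) were also higher. Lower was the hyaluronan synthase gene Has1 (0.644 and 0.382 RPKM). With no filter limma called 0 of the 27 (9 at an unadjusted p under 0.05), and limma-voom on genes with at least 10 reads in 3 libraries, chosen after seeing the data, called 4 of 25, Adamts8, Bgn, Cspg4 and Dse, beside 11.4% of all genes in that fit. These lists were chosen with earlier results known, and the genes were picked out here for their groups.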
